A study of Mus musculus with 8 samples.

Results

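The 50 genes described here make, import and burn fatty acids, and they were listed by name with Ensembl IDs mapped to mouse GRCm38 symbols. Of them, 48 had at least 10 counts in 4 or more libraries and were tested, out of 15030 genes that passed that rule and 49671 in the files. The 48 comprise 20 genes of synthesis, 8 of uptake and activation, and 20 of oxidation. Mlxipl, which encodes the glucose-responsive transcription factor ChREBP, had 1 to 9 counts per library, and Cpt1b, the muscle form of carnitine palmitoyltransferase 1, had 2 to 8, so neither was tested. Polyadenylated RNA was measured by RNA sequencing in 8 mouse libraries whose source is labelled adipocytes. BMPR2 DELX (n = 4) is named as a mutant of Bmpr2, the gene of the type II bone morphogenetic protein receptor, and ROSA (n = 4) as its control. The allele, what DELX and ROSA stand for, the promoter of any transgene, the strain, age and sex of the mice, and any pooling or culture step are not given in the sources used here. The labels do not say whether the numbered libraries came from separate mice, so the p-values measure only the spread between these libraries, which may be technical.

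Fatty acids are built in the cytosol: ATP citrate lyase supplies acetyl-CoA, acetyl-CoA carboxylase makes malonyl-CoA, and fatty acid synthase joins these into palmitate, which elongases and desaturases then modify. They are burned in mitochondria, where long chains enter as carnitine esters and are shortened in repeated rounds of dehydrogenation, hydration, dehydrogenation and thiolysis. Malonyl-CoA blocks the carnitine entry step, so the 2 directions are normally not run together, and in mature fat cells uptake, synthesis and esterification fill the lipid droplet.

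The libraries held 28799445 to 43684785 gene counts. Levels are given as counts per 1e6 counts after TMM scaling (CPM), and levels of different genes are compared only as CPM per kb of exons. The label was not matched by the markers of mature fat cells: 7 of 10 markers had too few counts to be tested, Adipoq had 0 to 6 counts, and Lep and Cfd had at most 1 count in any library. Pparg, the fat cell transcription factor, was present at 18.2, 20.03, 22.7 and 26.3 CPM in the BMPR2 DELX libraries and 12.4, 16.0, 17.4 and 18.5 CPM in the ROSA libraries, and did not pass the test (edgeR, adjusted p = 0.086). Cebpa, another such factor, had 9.81, 13.4, 16.5 and 22.6 CPM in BMPR2 DELX and 7.58, 8.80, 10.6 and 8.89 CPM in ROSA (edgeR, adjusted p = 0.059), and Lipe, hormone-sensitive lipase, had a log2 fold change of 0.36 ± 0.19 (edgeR, adjusted p = 0.25). The 10 fat cell markers summed to 33.5, 39.4, 43.2 and 55.7 CPM in BMPR2 DELX and 24.2, 29.97, 32.1 and 31.5 CPM in ROSA, without overlap. Nearly all of each sum came from Pparg, Cebpa and Lipe, and for each of these 3 genes alone the groups overlapped. Single genes did not overlap in 18.0% of all tested genes. The part of the fat cell markers in the results was not tested. The 8 fibroblast and smooth muscle markers summed to 18113 to 26164 CPM in BMPR2 DELX, against 19023 to 23908 CPM in ROSA, and of the 8, all tested, Col3a1 was called (2.38-fold higher; edgeR, adjusted p = 0.0013) and 7 did not pass. The libraries are therefore called by their labels and not by a cell type. In bulk RNA, fewer cells of a type and less RNA per cell cannot be told apart. Bmpr2 itself was at 211 ± 17.6 CPM in BMPR2 DELX, against 197 ± 17.0 CPM in ROSA (SD, n = 4 each), and a whole-gene count does not check a mutation within the gene.

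In BMPR2 DELX against ROSA, 8 of the 48 tested fatty acid genes passed an adjusted p below 0.05 (edgeR, adjusted over all 14887 genes tested), and 9.10% of all tested genes did. Higher were Scd2, Fads1, Fads2, Gpam, Cpt2 and Hadh, 6 genes against a background of 3.96% of all genes higher. Lower were Fads3 and Cpt1a, 2 genes against a background of 5.15% of all genes lower. All but Gpam changed by less than 1.5-fold. The 2 groups of libraries did not overlap for 9 of the 48 genes, a share close to the 18.0% of all tested genes. BMPR2 DELX was the higher for 7 of the 9, where the background is 8.32% of all genes, and the lower for 2, where it is 9.64%. The median log2 fold change was 0.04 over the 48 genes and 0.0045 over all genes, with 28 genes positive and 20 negative. A log2 fold change within 0.25 of 0 was found for 34 of the 48, and for 64.3% of all genes. The calls were close to the threshold: leaving out 1 library at a time left 0 to 4 of the 48 called, 0 without BMPR2 DELX 2.

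**Figure D1:**
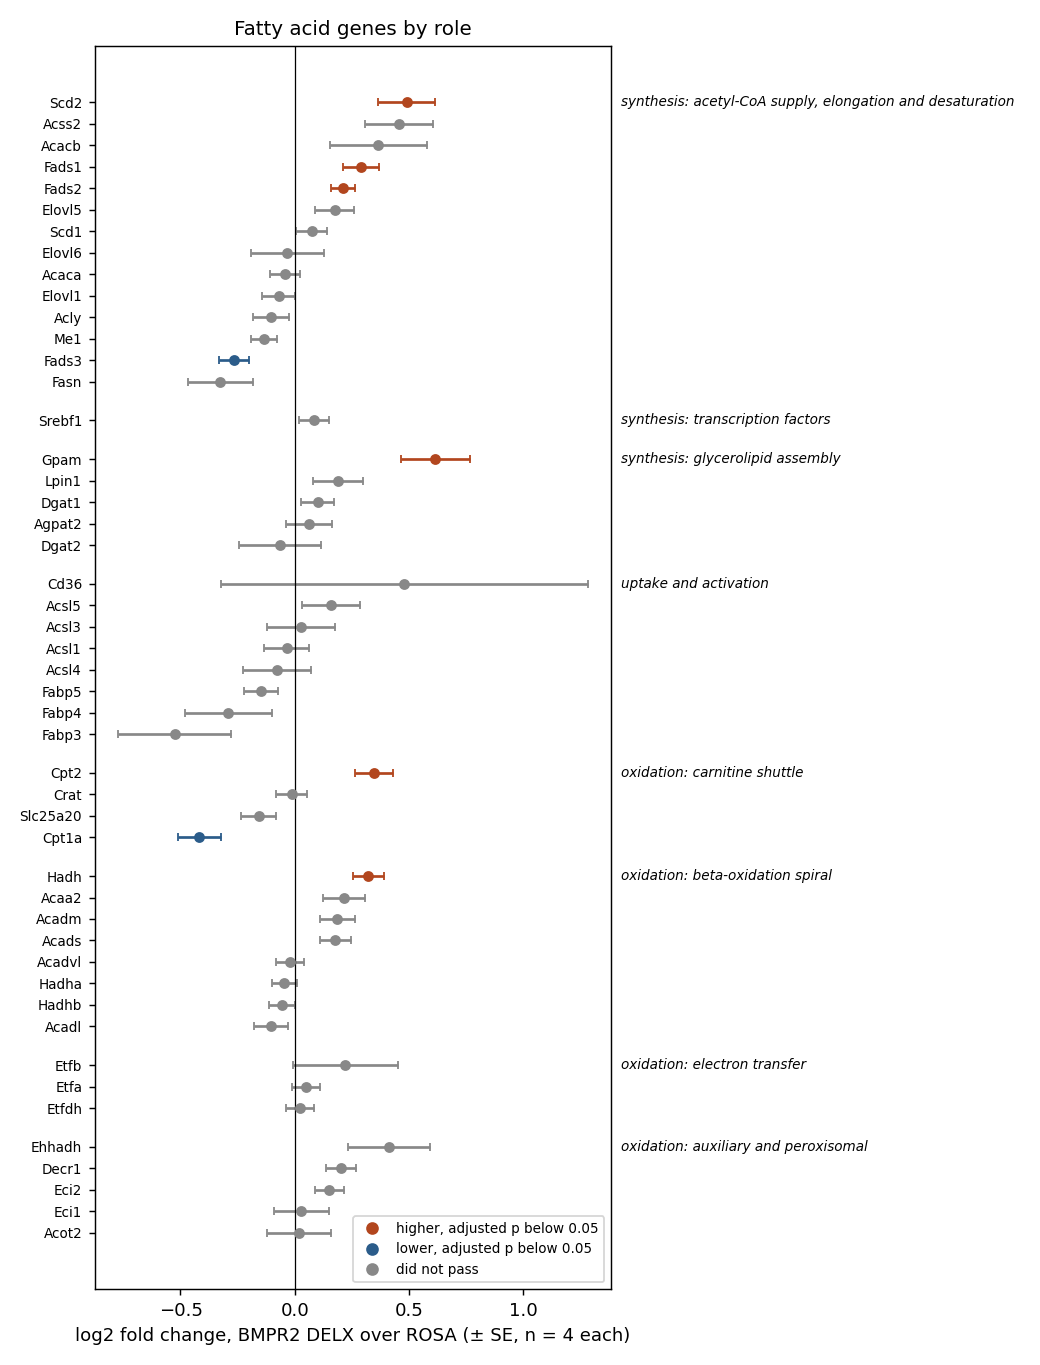
Log2 fold change of each of the 48 tested genes, BMPR2 DELX over ROSA (x axis), grouped by role down the page; points are edgeR estimates, bars are ± SE, n = 4 libraries each. The 6 higher and 2 lower genes are coloured and lie among grey genes of the same role, and Cd36, with 2 to 36 counts per library, has the widest bar.

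The enzymes that make palmitate did not pass the test. Fasn, fatty acid synthase, had 353, 429, 277 and 379.8 CPM in BMPR2 DELX libraries 1 to 4, against 489.9, 519.6, 423 and 371 CPM in ROSA libraries 1 to 4. Its means were 359.9 ± 63.5 CPM in BMPR2 DELX, against 451 ± 66.9 CPM in ROSA (SD, n = 4 each), with a log2 fold change of -0.33 ± 0.14 (SE; edgeR, adjusted p = 0.18). The groups overlapped, and the highest levels were in ROSA 1 and ROSA 2. Acly, ATP citrate lyase, had 247, 259, 247 and 251 CPM in BMPR2 DELX and 287, 297, 262 and 233 CPM in ROSA (log2 fold change -0.10 ± 0.08; edgeR, adjusted p = 0.44). Acaca, the cytosolic acetyl-CoA carboxylase, had 69.0, 69.5, 60.5 and 64.0 CPM in BMPR2 DELX and 67.5, 68.8, 71.4 and 63.3 CPM in ROSA (log2 fold change -0.04 ± 0.07; edgeR, adjusted p = 0.72). Both genes had overlapping groups. Me1, malic enzyme, which supplies NADPH, had 94.7, 95.7, 100.4 and 101 CPM in BMPR2 DELX and 110.3, 113, 108 and 99.9 CPM in ROSA (log2 fold change -0.13 ± 0.06; edgeR, adjusted p = 0.18). Acacb, the carboxylase of the mitochondrial surface, was scarce, at 0.364 CPM per kb in BMPR2 DELX and 0.283 CPM per kb in ROSA, where Acaca had 3.85 CPM per kb in BMPR2 DELX and 3.97 CPM per kb in ROSA. Acss2, which makes acetyl-CoA from acetate, had 8.54, 9.80, 7.19 and 10.2 CPM in BMPR2 DELX and 6.18, 7.30, 7.31 and 5.31 CPM in ROSA (log2 fold change 0.46 ± 0.15; edgeR, adjusted p = 0.084). Its level is uncertain, because 59.6% of its stranded counts lay on the other strand, where Gss and Acss2os are annotated. Acaca and Me1 have near-identical copies in the genome. Reads that mapped equally well to a gene and its copy were counted for neither, so both levels are uncertain.

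The desaturases did not all move one way: Scd2, Fads1 and Fads2 were called higher, Fads3 was called lower and Scd1 did not pass. Scd2 (ENSMUSG00000025203, GRCm38 chr19:44293674-44306864, plus strand), a stearoyl-CoA desaturase that makes monounsaturated fatty acids and is widely expressed outside liver, was the most abundant of the 48 genes per kb of exons. It had 547, 466, 502 and 462 CPM in BMPR2 DELX libraries 1 to 4, against 383, 432, 303 and 291 CPM in ROSA libraries 1 to 4. Every BMPR2 DELX library lay above every ROSA library, and ROSA 3 and ROSA 4 were the lowest. Scd2 rose 1.40-fold (log2 fold change 0.49 ± 0.13; edgeR, adjusted p = 0.042), with means of 495 ± 39.5 CPM in BMPR2 DELX, against 352 ± 67.0 CPM in ROSA. With 1 library left out, the call was kept only without ROSA 2. Scd1, the isoform best known from liver and fat, had 166, 164, 188 and 164 CPM in BMPR2 DELX and 174, 162, 152 and 159.7 CPM in ROSA (log2 fold change 0.07 ± 0.07; edgeR, adjusted p = 0.53). The 2 transcripts are 95.5% identical over 623 bases, and reads that mapped equally well to both were counted for neither. The ratio of Scd2 to Scd1 in CPM per kb was 2.96, 2.55, 2.40 and 2.53 in the BMPR2 DELX libraries and 1.98, 2.38, 1.79 and 1.63 in the ROSA libraries, so the groups were apart by a narrow margin. Because Scd1 hardly differed, this ratio largely repeats the Scd2 result and is no further support.

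The 3 genes of the fatty acid desaturase cluster lie side by side on chromosome 19, with 2654 bases between Fads2 and Fads3 and 81141 bases between Fads1 and Fads2. Fads1 and Fads2 encode the front-end desaturases that make polyunsaturated fatty acids such as arachidonic acid, and Fads3 encodes an enzyme that introduces a double bond into the ceramide backbone. Fads1 (ENSMUSG00000010663, GRCm38 chr19:10182888-10196877, plus strand) had 189, 197, 203 and 214 CPM in BMPR2 DELX, against 153, 154, 188 and 162 CPM in ROSA. It rose 1.22-fold without overlap between the groups (log2 fold change 0.29 ± 0.08; edgeR, adjusted p = 0.047), and BMPR2 DELX 1 was only just above ROSA 3. Fads2 (ENSMUSG00000024665, GRCm38 chr19:10062765-10101746, minus strand) had 82.6, 77.9, 79.9 and 81.6 CPM in BMPR2 DELX, against 68.3, 69.1, 73.1 and 67.5 CPM in ROSA. It rose 1.16-fold (log2 fold change 0.21 ± 0.05; edgeR, adjusted p = 0.037), and the libraries within each group lay close together and did not overlap with the other group. Fads3 (ENSMUSG00000024664, GRCm38 chr19:10041569-10060110, plus strand) had 167, 183, 186 and 188 CPM in BMPR2 DELX, against 204, 231, 211 and 225 CPM in ROSA. It fell to 0.83 of the ROSA level (log2 fold change -0.26 ± 0.07; edgeR, adjusted p = 0.036), and every BMPR2 DELX library lay below every ROSA library. Within each library, the ratio of Fads1 to Fads3 in CPM per kb was 0.891, 0.848, 0.860 and 0.895 in BMPR2 DELX and 0.593, 0.527, 0.700 and 0.570 in ROSA. This ratio needs no scaling between libraries, and its groups were apart by more than the SD within either of them. Because Fads1 and Fads3 each separated the groups in opposite directions, their ratio had to separate them and is no further support. With 1 library left out, Fads1 and Fads2 kept their calls only without ROSA 3 and Fads3 in none of the 8 fits, while their log2 fold changes stayed within 0.26 to 0.36, 0.20 to 0.24 and -0.28 to -0.22. The 3 listed elongases did not pass: Elovl5, which lengthens polyunsaturated chains, had 95.9, 82.3, 92.4 and 76.1 CPM in BMPR2 DELX and 84.6, 77.2, 71.8 and 73.7 CPM in ROSA (log2 fold change 0.17 ± 0.09), and Elovl1 and Elovl6 had log2 fold changes of -0.07 ± 0.07 and -0.03 ± 0.16.

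**Figure D2:**
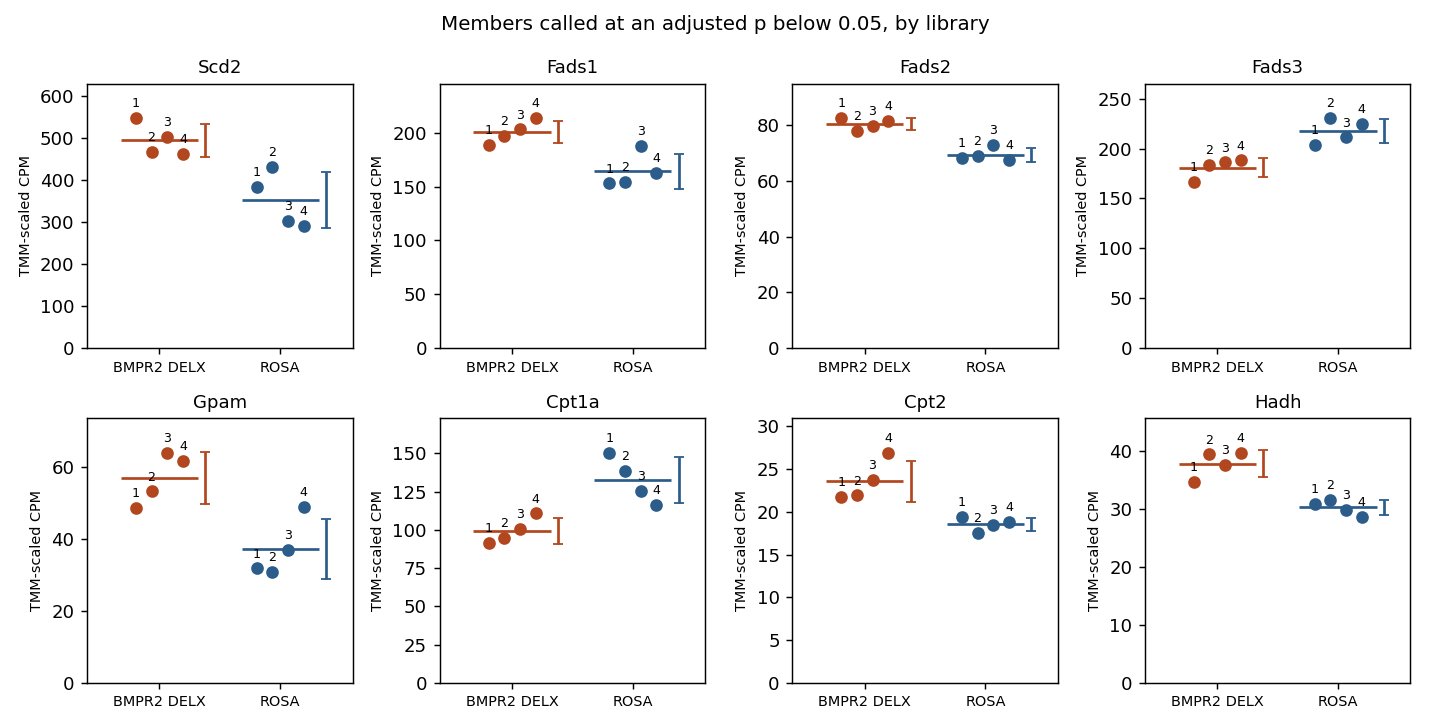
TMM-scaled CPM of the 8 genes that passed, by library (y axes start at 0; numbers are library numbers; lines are means and side bars ± SD, n = 4 each). Scd2, Fads1, Fads2, Cpt2 and Hadh are higher and Fads3 and Cpt1a lower in BMPR2 DELX without overlap, while for Gpam BMPR2 DELX 1 at 48.5 lies under ROSA 4 at 48.9.

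Glycerolipid assembly, which esterifies fatty acids to glycerol, held the largest fold change among the 8 genes called. Gpam (ENSMUSG00000024978, GRCm38 chr19:55067268-55127238, minus strand), the mitochondrial glycerol-3-phosphate acyltransferase that commits acyl-CoA to glycerolipids, had 48.5, 53.2, 63.9 and 61.6 CPM in BMPR2 DELX, against 31.8, 30.7, 37.0 and 48.9 CPM in ROSA. It rose 1.53-fold (log2 fold change 0.61 ± 0.15; edgeR, adjusted p = 0.038), with ROSA 4 standing above the other ROSA libraries and just above BMPR2 DELX 1. Leaving out BMPR2 DELX 1 or ROSA 4 kept the call and leaving out any of the other 6 libraries ended it, with adjusted p up to 0.098 (edgeR). The next steps did not pass: Lpin1, a phosphatidate phosphatase, had 13.6, 15.4, 12.9 and 16.9 CPM in BMPR2 DELX and 13.9, 13.99, 12.2 and 11.5 CPM in ROSA (log2 fold change 0.19 ± 0.11; edgeR, adjusted p = 0.30). Dgat1, which completes triglyceride, had 16.9, 15.3, 16.7 and 17.1 CPM in BMPR2 DELX and 15.7, 15.1, 15.4 and 15.4 CPM in ROSA (log2 fold change 0.10 ± 0.07; edgeR, adjusted p = 0.40). Agpat2, an acyltransferase whose loss causes lipodystrophy, had 12.1, 15.9, 14.3 and 15.5 CPM in BMPR2 DELX and 14.8, 13.6, 14.2 and 12.9 CPM in ROSA, and Dgat2 had a log2 fold change of -0.06 ± 0.18. Libraries of the 2 groups overlapped for each of these 4 genes. Srebf1, which encodes the transcription factor that drives many synthesis genes, had 83.0, 91.3, 92.8 and 97.5 CPM in BMPR2 DELX and 90.7, 87.7, 81.0 and 84.7 CPM in ROSA (log2 fold change 0.08 ± 0.07; edgeR, adjusted p = 0.45).

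None of the 8 uptake and activation genes passed, and none had an unadjusted p below 0.05 (edgeR; 26.3% of all genes did). DESeq2, voom and the other edgeR settings tried called none of them either. Cd36, the fatty acid translocase of fat, muscle and capillaries, was nearly undetected, at 1.18, 0.0563, 0.733 and 0.134 CPM in BMPR2 DELX and 0.0932, 0.388, 0.498 and 0.467 CPM in ROSA, where 3 counts are 0.0687 to 0.104 CPM. Only 5 libraries had 10 or more counts of it, and with a log2 fold change of 0.48 ± 0.80 (edgeR, adjusted p = 0.75) only a large difference could have passed. Fabp4, the fatty acid binding protein of fat cells and capillary endothelium, had 55.6, 59.7, 33.8 and 50.3 CPM in BMPR2 DELX and 53.5, 74.4, 48.7 and 67.4 CPM in ROSA (log2 fold change -0.29 ± 0.19; edgeR, adjusted p = 0.37). BMPR2 DELX 3 had the lowest level and the groups overlapped. Fabp3, the heart form, had 3.63, 4.14, 7.30 and 7.64 CPM in BMPR2 DELX and 9.9995, 8.41, 6.98 and 7.41 CPM in ROSA (log2 fold change -0.52 ± 0.25; edgeR, adjusted p = 0.21). Fabp5 had 55.8, 56.2, 48.2 and 51.8 CPM in BMPR2 DELX and 59.1, 53.8, 57.8 and 64.0 CPM in ROSA (log2 fold change -0.15 ± 0.07; edgeR, adjusted p = 0.24). The last 2 genes have near-identical copies elsewhere in the genome, so their levels are uncertain. Among the acyl-CoA synthetases, which trap fatty acids as CoA esters, Acsl4 and Acsl5 were the most abundant per kb, and Acsl1, the main form of mature fat cells, had only 1.26 CPM per kb in BMPR2 DELX and 1.29 CPM per kb in ROSA. Acsl4 had 147, 109.8, 143 and 111 CPM in BMPR2 DELX and 155, 155, 122 and 106 CPM in ROSA (log2 fold change -0.08 ± 0.15; edgeR, adjusted p = 0.78). Acsl5 had 143, 144, 93.9 and 115 CPM in BMPR2 DELX and 111, 118, 103 and 112 CPM in ROSA (log2 fold change 0.16 ± 0.13; edgeR, adjusted p = 0.46). Both spread as widely within groups as between them. Acsl1 and Acsl3 had log2 fold changes of -0.04 ± 0.10 and 0.03 ± 0.15.

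In oxidation, 3 of 20 genes passed (9.10% of all tested genes did): the carnitine gate split, with Cpt1a lower and Cpt2 higher, and Hadh of the beta-oxidation spiral was higher. For these 3 genes and for Gpam, the reference sequence before a RefSeq start is shown. Among them only Cpt1a and Cpt2 differed in opposite directions within 1 pathway step. The choice leaves out other genes called, such as Fads3. The sequences are the 250 bases before that start (GRCm38.p6), 5′ to 3′ on the gene's strand, with capitals for the NF-Y box CCAAT and the GC box GGGCGG on either strand.
Cpt1a: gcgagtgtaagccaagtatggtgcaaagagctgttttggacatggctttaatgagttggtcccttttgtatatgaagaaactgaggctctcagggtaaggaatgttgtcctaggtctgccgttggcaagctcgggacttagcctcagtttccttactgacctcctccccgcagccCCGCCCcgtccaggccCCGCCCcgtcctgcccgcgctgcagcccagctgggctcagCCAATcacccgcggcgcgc
Cpt2: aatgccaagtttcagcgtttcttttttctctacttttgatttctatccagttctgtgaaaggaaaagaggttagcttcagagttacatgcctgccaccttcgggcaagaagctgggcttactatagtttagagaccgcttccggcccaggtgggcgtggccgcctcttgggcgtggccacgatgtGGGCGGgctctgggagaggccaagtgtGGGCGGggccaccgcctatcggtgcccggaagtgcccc
Hadh: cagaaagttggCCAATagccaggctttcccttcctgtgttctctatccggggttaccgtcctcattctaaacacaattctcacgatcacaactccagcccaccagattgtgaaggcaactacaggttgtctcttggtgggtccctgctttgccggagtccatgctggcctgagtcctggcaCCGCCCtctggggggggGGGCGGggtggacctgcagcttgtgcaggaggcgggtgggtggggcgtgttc
Gpam: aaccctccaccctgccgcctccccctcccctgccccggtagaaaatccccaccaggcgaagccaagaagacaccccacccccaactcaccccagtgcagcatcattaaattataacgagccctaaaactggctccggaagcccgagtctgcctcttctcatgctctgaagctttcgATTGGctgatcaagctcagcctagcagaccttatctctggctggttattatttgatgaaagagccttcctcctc
They lie at chr19:3323051-3323300 (plus strand, Cpt1a), chr4:107923590-107923839 (minus, Cpt2), chr3:131272102-131272351 (minus, Hadh) and chr19:55127239-55127488 (minus, Gpam, the first of 2 RefSeq starts). RefSeq and GENCODE starts differ: the Cpt1a window lies inside the GENCODE span of the gene and shares 16 bases with its exons, and the Cpt2 window shares 21. CCAAT was in the windows shown of Cpt1a, Hadh and Gpam and in 33.8% of all 32851 windows of that length. GGGCGG was in those of Cpt1a, Cpt2 and Hadh and in 32.7% of all windows. The window of the other Gpam start, not shown, held GGGCGG and no CCAAT, and that of Fads3, not shown, held both. The 39 listed genes with an entry have 46 windows, of which 23 held CCAAT and 27 held GGGCGG. The E-box CACGTG was in 2 of the 46 and in 6.02% of all windows, and the sterol element-like TCACNCCAC in 3 (of Acsl1, Ehhadh and Mlxipl) and in 1.05%. A match describes these letters only.

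Cpt1a (ENSMUSG00000024900, GRCm38 chr19:3322334-3385733, plus strand), the outer membrane enzyme that makes acylcarnitines and is blocked by malonyl-CoA, had 91.3, 94.7, 101 and 111 CPM in BMPR2 DELX, against 150.4, 139, 125 and 116 CPM in ROSA. It fell to 0.75 of the ROSA level (log2 fold change -0.42 ± 0.09; edgeR, adjusted p = 0.024), with means of 99.3 ± 8.57 CPM in BMPR2 DELX, against 133 ± 15.0 CPM in ROSA. Every BMPR2 DELX library lay below every ROSA library, and the highest levels were in ROSA 1 and ROSA 2. The call was lost when BMPR2 DELX 1, BMPR2 DELX 2, ROSA 1 or ROSA 2 was left out, and without both ROSA 1 and ROSA 2 the log2 fold change was -0.27 ± 0.09 (edgeR, adjusted p = 0.22). Cpt2 (ENSMUSG00000028607, GRCm38 chr4:107903981-107923610, minus strand), the inner membrane enzyme that turns acylcarnitines back into acyl-CoA, had 21.7, 21.9, 23.7 and 26.9 CPM in BMPR2 DELX, against 19.4, 17.6, 18.5 and 18.8 CPM in ROSA. It rose 1.27-fold without overlap (log2 fold change 0.35 ± 0.08; edgeR, adjusted p = 0.034), with BMPR2 DELX 4 the highest, and of the 8 fits with 1 library left out only that without BMPR2 DELX 1 kept the call. The ratio of Cpt1a to Cpt2 in CPM per kb was 1.31, 1.35, 1.33 and 1.29 in BMPR2 DELX, against 2.42, 2.47, 2.12 and 1.94 in ROSA. It was nearly constant in BMPR2 DELX and higher in every ROSA library. The separation had to follow from those of Cpt1a and Cpt2, which lie in opposite directions. Slc25a20, the translocase that carries acylcarnitines across the inner membrane, had 18.4, 20.4, 19.4 and 20.7 CPM in BMPR2 DELX and 22.2, 23.9, 21.4 and 20.6 CPM in ROSA (log2 fold change -0.16 ± 0.07; edgeR, adjusted p = 0.21). Crat, carnitine acetyltransferase, had 65.9, 70.9, 65.5 and 72.9 CPM in BMPR2 DELX and 75.2, 67.9, 64.5 and 70.3 CPM in ROSA (log2 fold change -0.01 ± 0.07).

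Hadh (ENSMUSG00000027984, GRCm38 chr3:131233419-131272101, minus strand), the hydroxyacyl-CoA dehydrogenase of short and medium chains, had 34.7, 39.5, 37.7 and 39.7 CPM in BMPR2 DELX, against 31.0, 31.6, 29.9 and 28.7 CPM in ROSA. It rose 1.25-fold with no overlap (log2 fold change 0.32 ± 0.07; edgeR, adjusted p = 0.020), with means of 37.9 ± 2.33 CPM in BMPR2 DELX, against 30.3 ± 1.26 CPM in ROSA. The call was kept in 7 of 8 fits with 1 library left out and lost without BMPR2 DELX 2 (edgeR, adjusted p = 0.054). The other 7 spiral genes did not pass. Acads, the short-chain acyl-CoA dehydrogenase, had 31.6, 35.8, 35.3 and 37.7 CPM in BMPR2 DELX and 31.1, 31.2, 30.6 and 31.3 CPM in ROSA, without overlap (log2 fold change 0.18 ± 0.07; edgeR, adjusted p = 0.12). Acadm, the medium-chain enzyme, had 28.0, 25.9, 27.6 and 29.7 CPM in BMPR2 DELX and 26.6, 25.1, 23.5 and 22.5 CPM in ROSA (log2 fold change 0.19 ± 0.08; edgeR, adjusted p = 0.15), and the groups overlapped. Acaa2, a thiolase, had 31.3, 34.2, 33.6 and 35.3 CPM in BMPR2 DELX and 33.9, 29.5, 26.0 and 26.3 CPM in ROSA (log2 fold change 0.22 ± 0.09; edgeR, adjusted p = 0.17). Acadvl, the very-long-chain dehydrogenase, had 61.4, 69.0, 69.9 and 71.3 CPM in BMPR2 DELX and 69.1, 68.3, 70.5 and 67.4 CPM in ROSA (log2 fold change -0.02 ± 0.06). Acadl, the long-chain dehydrogenase, had 53.2, 57.9, 53.6 and 53.0 CPM in BMPR2 DELX and 56.4, 56.0, 67.0 and 55.0 CPM in ROSA (log2 fold change -0.11 ± 0.07; edgeR, adjusted p = 0.40). Hadha and Hadhb, the 2 subunits of the trifunctional protein, had log2 fold changes of -0.05 ± 0.06 and -0.06 ± 0.06, and Hadhb has a near-identical copy in the genome. The ratio of Hadh to Hadha in CPM per kb was 0.430, 0.482, 0.462 and 0.461 in BMPR2 DELX, against 0.345, 0.376, 0.370 and 0.333 in ROSA. Because Hadha hardly differed, this ratio largely repeats the Hadh result and is no further support.

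Electron transfer and the auxiliary enzymes did not pass. Etfa, a subunit of the flavoprotein that takes electrons from the dehydrogenases, had 60.9, 55.8, 57.5 and 52.4 CPM in BMPR2 DELX and 54.7, 54.7, 53.9 and 55.6 CPM in ROSA (log2 fold change 0.05 ± 0.06). Etfdh, which passes them to ubiquinone, had 39.1, 37.8, 40.5 and 41.0 CPM in BMPR2 DELX and 37.4, 41.5, 40.0 and 37.0 CPM in ROSA (log2 fold change 0.02 ± 0.06). Etfb, the other subunit, shares 53.0% of its exon bases with a gene on the same strand, so its level of 4.54 CPM per kb in BMPR2 DELX and 3.92 CPM per kb in ROSA is uncertain. All 5 auxiliary and peroxisomal genes had positive log2 fold changes, of 0.02 to 0.41. Decr1, the dienoyl-CoA reductase needed for polyunsaturated chains, had 33.4, 34.5, 36.6 and 38.2 CPM in BMPR2 DELX and 29.8, 31.1, 31.4 and 31.9 CPM in ROSA, without overlap (log2 fold change 0.20 ± 0.06; edgeR, adjusted p = 0.079). Eci2, an enoyl-CoA isomerase, had 33.0, 33.5, 32.3 and 30.4 CPM in BMPR2 DELX and 27.8, 29.5, 28.5 and 30.5 CPM in ROSA (log2 fold change 0.15 ± 0.06; edgeR, adjusted p = 0.16). Ehhadh, the peroxisomal bifunctional enzyme, had 3.96, 5.27, 5.34 and 4.82 CPM in BMPR2 DELX and 2.92, 3.01, 4.29 and 4.40 CPM in ROSA (log2 fold change 0.41 ± 0.18; edgeR, adjusted p = 0.18). Eci1, another isomerase, and Acot2, a thioesterase with a near-identical neighbour in Acot1, had log2 fold changes of 0.03 ± 0.12 and 0.02 ± 0.14.

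Set side by side, synthesis and oxidation differed between the groups by similar small amounts. The mean log2 CPM of the 20 synthesis genes was 5.80, 5.85, 5.82 and 5.89 in BMPR2 DELX and 5.76, 5.79, 5.72 and 5.68 in ROSA, a difference of 0.10 with no overlap. The margin was narrow, with BMPR2 DELX 1 at 5.798 and ROSA 2 at 5.789, and the 20 include Acss2, whose level is uncertain. The mean log2 CPM of the 20 oxidation genes was 4.88, 4.99, 4.97 and 5.04 in BMPR2 DELX and 4.92, 4.86, 4.89 and 4.90 in ROSA, a difference of 0.08 with overlap. Synthesis minus oxidation was therefore 0.870 ± 0.034 in BMPR2 DELX and 0.845 ± 0.063 in ROSA (log2 scale, SD, n = 4 each), and the difference of 0.025 was less than the spread between libraries. The balance of the 2 pathways, measured so, was not separable between the groups. By count, synthesis had 4 genes higher and 1 lower, with 15 short of the threshold, and oxidation had 2 higher and 1 lower, with 17 short of it, where 3.96% of all genes were higher and 5.15% lower. The summed level of the synthesis genes was 2343 ± 41.2 CPM in BMPR2 DELX, against 2268 ± 172 CPM in ROSA, and that of the oxidation genes 856 ± 29.0 CPM in BMPR2 DELX, against 866 ± 27.5 CPM in ROSA (SD, n = 4 each). Libraries of the 2 groups overlapped in both sums.

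**Figure D3:**
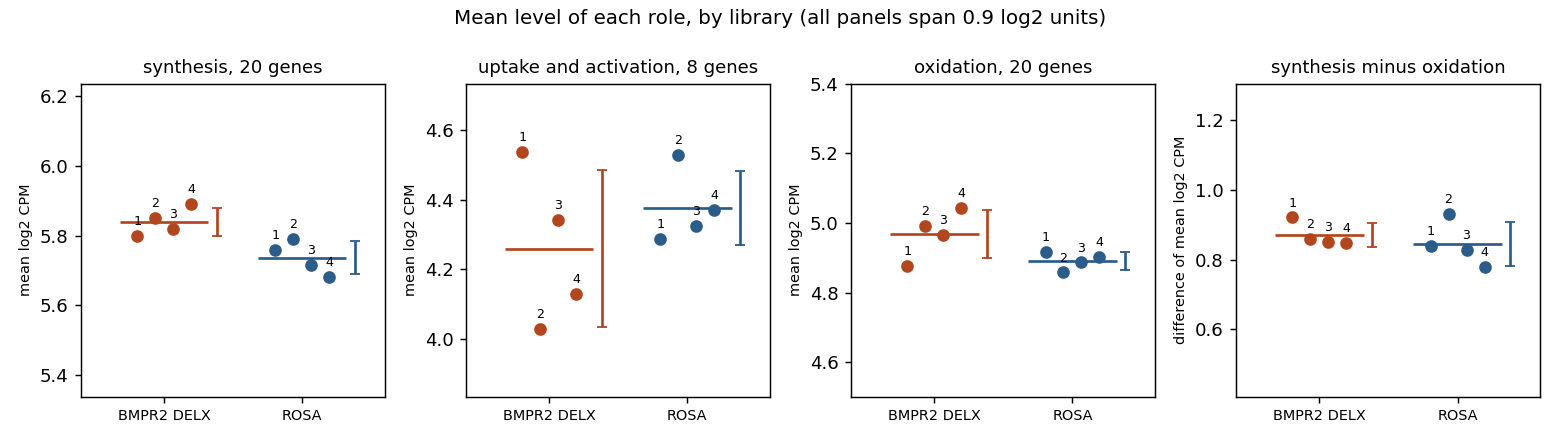
Mean log2 CPM of the genes of each role and the difference between synthesis and oxidation, by library (all y axes span the same range; numbers are library numbers; lines are means, side bars ± SD, n = 4 each). The synthesis points of BMPR2 DELX lie above those of ROSA by a narrow margin, and the points for synthesis minus oxidation overlap.

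Of 84 other genes of these pathways, 69 were tested, and 5 were higher, 7 lower and 57 did not pass (edgeR, adjusted p below 0.05 over all genes), where 3.96% of all genes were higher and 5.15% lower. Echs1, the short-chain enoyl-CoA hydratase, had 33.4, 31.4, 33.0 and 30.7 CPM in BMPR2 DELX, against 23.4, 23.9, 23.8 and 24.3 CPM in ROSA (log2 fold change 0.43 ± 0.06; edgeR, adjusted p = 0.0039). Ech1, an isomerase for unsaturated chains, had 29.99, 32.7, 30.2 and 35.2 CPM in BMPR2 DELX and 25.5, 25.6, 23.3 and 25.1 CPM in ROSA (log2 fold change 0.36 ± 0.07; edgeR, adjusted p = 0.018). Acat1, the mitochondrial acetoacetyl-CoA thiolase, had 49.2, 49.0, 50.4 and 46.7 CPM in BMPR2 DELX and 41.0, 37.6, 42.4 and 39.7 CPM in ROSA (log2 fold change 0.28 ± 0.06; edgeR, adjusted p = 0.022). All 3 rose with no overlap between the groups. Acot9, a mitochondrial acyl-CoA thioesterase, fell, at 82.7, 79.4, 78.2 and 81.2 CPM in BMPR2 DELX, against 113, 113, 101 and 105 CPM in ROSA (log2 fold change -0.42 ± 0.06; edgeR, adjusted p = 0.0040). Slc27a1, the fatty acid transport protein FATP1, fell, at 13.5, 12.2, 12.6 and 12.4 CPM in BMPR2 DELX, against 23.2, 18.7, 16.9 and 18.5 CPM in ROSA (log2 fold change -0.61 ± 0.10; edgeR, adjusted p = 0.0095). Echs1, Ech1, Acot9 and Slc27a1 kept their calls in all 8 fits with 1 library left out, and none of the 4 did without both ROSA 1 and ROSA 2. Slc27a1, Fabp3 and Hacd1 are also known from muscle. The 8 skeletal muscle markers summed to 127 to 229.9 CPM in BMPR2 DELX libraries and 309 to 564 CPM in ROSA libraries, nearly all of it Acta1. Of the 8, 2 were tested. Acta1 was called (lower, edgeR) and Mylpf did not pass (log2 fold change 0.03 ± 0.32, edgeR, adjusted p = 0.96). Tnnt3 and Myh1 had at most 23 and 12 counts, and Myod1, Myog, Ckm and Myh4 had at most 2 counts in any library.

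Lpl, lipoprotein lipase, which frees fatty acids from circulating triglyceride, rose, at 190.4, 172, 246 and 231 CPM in BMPR2 DELX, against 135, 119, 160.0 and 148 CPM in ROSA (log2 fold change 0.58 ± 0.13; edgeR, adjusted p = 0.024). Its groups did not overlap, and its call was lost when BMPR2 DELX 3, BMPR2 DELX 4, ROSA 1 or ROSA 2 was left out. Macrophages also express Lpl, and the 10 macrophage markers summed to 39.7 to 73.2 CPM in BMPR2 DELX, against 27.7 to 38.3 CPM in ROSA, highest in BMPR2 DELX 3 as Lpl was. Of those markers 5 were tested, all with positive log2 fold changes, and 1, Cd68, was called (higher). Lyz2 and Mpeg1 were 2.84-fold and 3.69-fold higher without passing (edgeR, adjusted p = 0.074 and 0.076), and Csf1r and Cd14 did not pass either. Ptprc had 4 to 18 counts, and C1qa and C1qb were at 0 in ROSA 1. The part of these markers in the Lpl result was not tested. Acsf2, an acyl-CoA synthetase of mitochondria, had 15.1, 16.4, 14.8 and 12.6 CPM in BMPR2 DELX and 8.04, 7.61, 9.97 and 11.2 CPM in ROSA (log2 fold change 0.68 ± 0.14; edgeR, adjusted p = 0.018), a call lost without BMPR2 DELX 2 or ROSA 2. Dbi, the acyl-CoA binding protein, fell (log2 fold change -0.23 ± 0.06; edgeR, adjusted p = 0.044). It had 61.4, 63.5, 58.7 and 66.8 CPM in BMPR2 DELX and 69.2, 75.6, 75.4 and 74.0 CPM in ROSA.

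Of the 28 other synthesis genes tested, 4 were lower and none higher, where 5.15% of all genes were lower and 3.96% higher. Gpat3, the glycerol-3-phosphate acyltransferase of the endoplasmic reticulum, fell, with 3.96, 4.65, 3.78 and 3.95 CPM in BMPR2 DELX, against 8.32, 9.12, 5.48 and 5.28 CPM in ROSA (log2 fold change -0.79 ± 0.19; edgeR, adjusted p = 0.034). It catalyses the same kind of step as Gpam, which rose. Elovl4, which makes very long chains, fell, with 5.20, 4.68, 5.28 and 4.47 CPM in BMPR2 DELX, against 9.25, 8.20, 7.68 and 5.57 CPM in ROSA (log2 fold change -0.65 ± 0.16; edgeR, adjusted p = 0.033). Both genes were highest in ROSA 1 and ROSA 2, and neither was called without those libraries. Hacd1 and Hsd17b12, which catalyse the dehydration and the first reduction of the elongation cycle, fell with log2 fold changes of -0.37 ± 0.10 and -0.26 ± 0.06 (edgeR, adjusted p = 0.046 and 0.039). Hacd1 had 24.4, 22.0, 30.6 and 24.7 CPM in BMPR2 DELX and 33.8, 31.2, 31.5 and 35.0 CPM in ROSA, and Hsd17b12 had 116 to 133 CPM in BMPR2 DELX, against 139 to 158 CPM in ROSA. Neither gene's groups overlapped. With 1 library left out, Gpat3 kept its call only without ROSA 3 or ROSA 4, Elovl4 and Hsd17b12 only without ROSA 4, Hacd1 only without BMPR2 DELX 3, Dbi only without BMPR2 DELX 4, and Acat1 lost its call without BMPR2 DELX 2, BMPR2 DELX 3 or ROSA 2.

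The libraries differed in ways that the 2 groups do not explain, and some fatty acid genes differed with them. The 10 immediate early genes, which rise within minutes when cells are disturbed, summed to 251, 269, 288 and 292 CPM in BMPR2 DELX and 1241, 1383, 281 and 282 CPM in ROSA, so ROSA 1 and ROSA 2 stood apart. All 10 were tested and 1, Arc, was called (lower). All 10 had negative log2 fold changes, of -4.10 to -0.72, and 9 had an unadjusted p below 0.05 (edgeR), as 26.3% of all genes did. For 3 of the 10 the groups did not overlap, as for 18.0% of all genes. Fasn was highest in those 2 libraries, and without both of them its log2 fold change was -0.13 ± 0.16 (edgeR, adjusted p = 0.75). Insig1, a sterol-regulated gene named after its values were seen, had 39.8, 35.4, 33.2 and 35.3 CPM in BMPR2 DELX and 73.3, 91.5, 37.1 and 33.3 CPM in ROSA. Its log2 fold change was -0.71 ± 0.32 with all libraries and 0.05 ± 0.10 without ROSA 1 and ROSA 2, and it passed in neither (edgeR, adjusted p = 0.20 and 0.86). Without both libraries Scd2 remained the only fatty acid gene of the 48 called, with a log2 fold change of 0.75 ± 0.10 (edgeR, adjusted p = 0.020). The 12 endothelial markers summed to 1402, 1407, 316 and 708 CPM in BMPR2 DELX and 1113, 1362, 593 and 960.2 CPM in ROSA. They were lowest in BMPR2 DELX 3 and ROSA 3, where Fabp4 was also lowest in its group, and Gpihbp1, which marks fat and muscle capillaries, had at most 1 count. Of the 12, 10 were tested and 0 were called (edgeR; 0 had an unadjusted p below 0.05). As a covariate, the endothelial level was the mean log2 CPM of those 10, which averaged 5.07 in each group. Such a balanced covariate can hardly move a group difference, so this fit cannot decide what part endothelial content had. In it 1720 of all genes were called, against 1355 without it, and all 8 fatty acid genes kept their calls. Fabp4 had a log2 fold change of -0.31 ± 0.09 in that fit (edgeR, adjusted p = 0.061). The part of these marker levels in the other results was not tested.

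**Figure D4:**
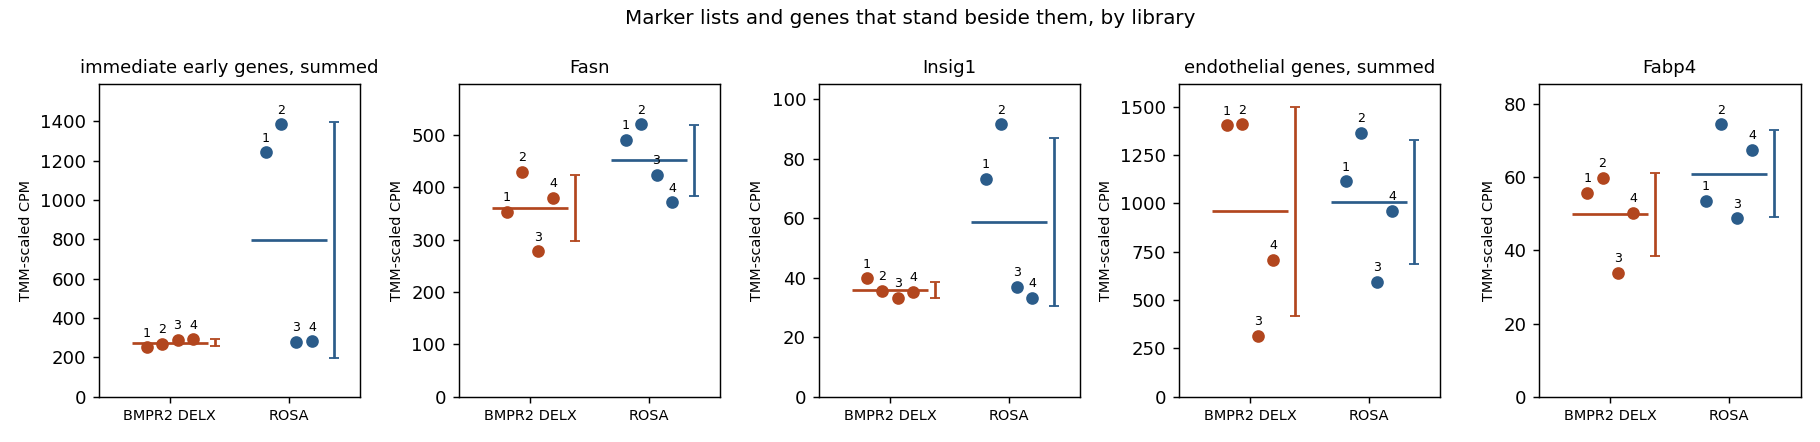
Summed CPM of the immediate early and endothelial markers and CPM of Fasn, Insig1 and Fabp4, by library (y axes start at 0; numbers are library numbers; lines are means, side bars ± SD, n = 4 each). ROSA 1 and ROSA 2 are high for the immediate early genes and highest for Fasn and Insig1, and BMPR2 DELX 3 and ROSA 3 are the lowest of their groups for the endothelial genes and Fabp4.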

How the data were processed

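The authors deposited a table of raw counts per gene for each sample. The submitters' processing notes name STAR 2.5.2b, HTSeq and the GRCm38 build without their roles, and the annotation release is not given in the sources used here. The opposite-strand column, which held 92.1% to 94.0% of strand-assigned counts, was used, lines naming no gene (14.7% to 22.0% of reads) were dropped, and 0 columns of per-sample values were left unused. GENCODE M21 gave symbols and positions for 49412 gene IDs. Counts were filtered with filterByExpr, scaled by TMM and tested with edgeR 4.0.16 (quasi-likelihood, robust; R 4.3.3) without covariates, Benjamini-Hochberg over all genes, threshold 0.05; the SE is the log2 fold change divided by the square root of F. The procedure was tested on data simulated from its own fitted model, with planted changes larger than those of every fatty acid gene called but Gpam. Such data cannot show whether calls of this size are sound. DESeq2 1.42.0, limma 3.58.1 (voom), other scalings and filters, the unstranded column, a replicate block and left-out libraries were alternatives. Counting error allows 3 counts where 0 were seen, and no pair of libraries agreed within sampling noise (chi-square per gene 1.83 to 3.79, where sampling alone gives about 1). Named with values in every library were the genes called and, per role, the 3 of smallest p and 2 of highest level per kb; of the other pathway genes, those called. Near-identical copies, at least 95% over 300 bases, were found with blastn 2.17.0 for 10 of the 50 genes. Promoter sequences are from RefSeq (GRCm38.p6), for 39 of the 50. The genes and lists were chosen with earlier results of these data known.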

Additional observations from a re-analysis of the deposited data

Results flagged for a closer look

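In 96 gene and group combinations of 4 libraries, 4 had a library far from the other 3 by Dixon's test, where chance gives about 1 in 20. Scd1 stood at 188 CPM in BMPR2 DELX 3, where the other BMPR2 DELX libraries had 164 to 166 CPM. Acadl stood at 57.9 CPM in BMPR2 DELX 2, where the others had 53.0 to 53.6 CPM, and at 67.0 CPM in ROSA 3, where the others had 55.0 to 56.4 CPM. Hadhb stood at 45.9 CPM in BMPR2 DELX 1, where the others had 43.0 to 43.1 CPM. None of the 3 genes was called, and the cause was not tested.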

How the results depend on the processing

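Of the 48 fatty acid genes, 8 were called; 10 were with DESeq2 (Acss2 and Decr1 added), 5 with no filter beyond 1 count, and 1 each without both ROSA 1 and ROSA 2 (Scd2) and without both BMPR2 DELX 3 and ROSA 3 (Fads1). Leaving out 1 library gave 0 to 4. Over all genes, 1355 were called, 2298 with DESeq2, 172 without ROSA 1 and ROSA 2, 631 without BMPR2 DELX 3 and ROSA 3, and 477 to 1266 with 1 library left out, lowest without ROSA 2. Fewer samples enter these last fits; otherwise the cause was not tested. With the replicate number as a block, 5 of the 48 and 1245 of all genes were called; same-numbered libraries deviated together with correlations of 0.0050, 0.21, 0.24 and 0.093, not every library went best with its own number, and the labels state no pairing. Upper-quartile scaling called 734 genes higher and 606 lower, against 589 higher and 766 lower with TMM. The median log2 fold change of all genes was 0.043 under it, against 0.0045 with TMM. With upper-quartile scaling Fads3 had an adjusted p of 0.057 (edgeR). Over the 60 named genes and 1199 alternative values no call changed sign, 139 values lost a call and 3 gained one. Only genes called in the main fit could lose a call and only the others could gain one, so neither count is a share of the 1199. Synthesis minus oxidation ran from 0.0036 to 0.054 with 1 library left out and was 0.066 without ROSA 1 and ROSA 2. Scaling to unscaled totals moved 10 of 96 mean levels by over 1 SD. Depth limits Cd36, Cpt1b and Mlxipl most.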

Other observations

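Of the 8 genes called, 6 lie on chromosome 19, where 8 of the 48 tested fatty acid genes lie: Scd2, Fads1, Fads2, Fads3, Gpam and Cpt1a were called and Scd1 and Acsl5 were not. Of the 40 genes elsewhere, 2 were called. Over all genes of chromosome 19, 51 of 502 were called, or 10.2%, against 9.10% over the genome. The pattern was noticed after the values were seen and was not tested.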
